A study of Mus musculus with 4 samples.

Results

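The vacuolar ATPase (V-ATPase) is the proton pump that acidifies the space between an osteoclast and bone. The genes described here encode its membrane-embedded V0 sector and its accessory subunits. They were chosen by name: Tcirg1, Atp6v0a1, Atp6v0a2, Atp6v0b, Atp6v0c, Atp6v0d1, Atp6v0e, Atp6ap1 and Atp6ap2. Of these 9 genes, 8 had at least 1 probe set that the platform annotation assigned to that gene alone. Together they had 17 of the 22690 probe sets, and the table held 12394 genes with a probe set of their own. Atp6v0c, the gene of the main proteolipid subunit, had none under this rule and was not analysed here.

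In the V-ATPase, the V1 sector in the cytosol hydrolyses ATP, and its rotation turns a ring of proteolipid subunits in the membrane against subunit a, which carries protons across. Subunit a exists as several isoforms that place the pump on different membranes. The isoform encoded by Tcirg1 serves the ruffled border, the folded membrane through which an osteoclast secretes acid. Loss of Tcirg1 causes osteopetrosis, a disease of dense bone, in mice and humans. NFATc1 acts downstream of RANK, the receptor for the cytokine RANKL, and switches on genes of osteoclast formation and resorption.

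The cultures called NFATc1-deficient were NFATc1 fl/fl MxCre+. Their excision of floxed Nfatc1 was induced in the mice by polyIC, which switches on the interferon-responsive Mx promoter that drives Cre. The wild-type cultures were NFATc1 fl/fl MxCre-, so floxed alleles were present in both genotypes, and polyIC treatment of the MxCre- mice is not stated in the labels. All mice were C57BL/6, and their ages were not given. Precursors sorted from bone marrow (c-Kit+ c-Fms+, without CD11b, CD3e or B220) grew for 3 days in M-CSF and RANKL, which the labels call early osteoclasts. There were 2 arrays of each genotype, and each held RNA of pooled mice, 3 for replicate 1 and 4 for replicate 2. The Mx promoter acts in many blood and other cells, so excision was not limited to osteoclast precursors.

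Values are MAS5 signals on a linear scale. Median signals over mouse probe sets were 114.1 and 125.05 on the NFATc1-deficient arrays, against 130.05 and 111.65 on the wild-type arrays. Nfatc1 itself had 3018.2 and 4097.9 in NFATc1-deficient cultures, against 5433.6 and 6146.7 in wild-type cultures at its brighter probe set, so transcript signal remained, and the place of this probe set relative to the excised part was not given. All 8 osteoclast markers (Acp5, Calcr, Ctsk, Itgb3, Mmp9, Nfatc1, Ocstamp and Oscar) were called lower by the test described below. Over all genes tested with 1 probe set a gene, 11.8% were called lower. Nfatc1 is itself the floxed gene, so its fall is no separate reading of osteoclast state. The size of the fall varied. Itgb3, the integrin chain typical of osteoclasts, had 4.6 and 10.2 in NFATc1-deficient cultures, against 610.6 and 495.1 in wild-type cultures. The deficient cultures thus carry the osteoclast label with hardly any signal of this marker. Others stayed bright: Ctsk had 5598.7 and 8290.3 in NFATc1-deficient cultures, against 12136.7 and 14170.1 in wild-type cultures. Mmp9 had 7964.2 and 10263.5, against 14532.9 and 16008.3, at its brighter probe set. In both genotypes Xist was high in replicate 1 (2690 in NFATc1-deficient, 3595.4 in wild-type) and low in replicate 2 (111.4 in NFATc1-deficient, 106.1 in wild-type), so replicate 1 pools were female by this marker and replicate 2 pools were not. Since these are bulk cultures, fewer osteoclasts and less transcript per osteoclast cannot be told apart in any value below.

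The V0 sector and its accessory subunits were lower in NFATc1-deficient cultures at 10 of the 15 probe sets tested, and none was higher. The fall covered 6 genes: Tcirg1, Atp6v0b, Atp6v0d1, Atp6v0e, Atp6ap1 and Atp6ap2. NFATc1-deficient signals of these genes were between 48.0% and 71.7% of the wild-type mean. The remaining a-subunit isoforms, Atp6v0a1 and Atp6v0a2, had no probe set that passed. Changes are NFATc1-deficient minus wild-type on the scale log2(signal + 23.3), tested across the whole table with limma, and called at a Benjamini-Hochberg adjusted p under 0.05. Over all 13575 probe sets tested, 11.4% were called lower and 12.8% higher. The median change was -0.58 over the 15 member probe sets and 0.04 over all tested. Of the 17 member probe sets, 2 had a mean over all arrays below the filter and were not tested, both of Atp6v0a1. In both, the NFATc1-deficient signals were the lower ones. In the same 10 probe sets both NFATc1-deficient signals lay below both wild-type signals, as did 28.7% of all probe sets tested.

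**Figure D1:**
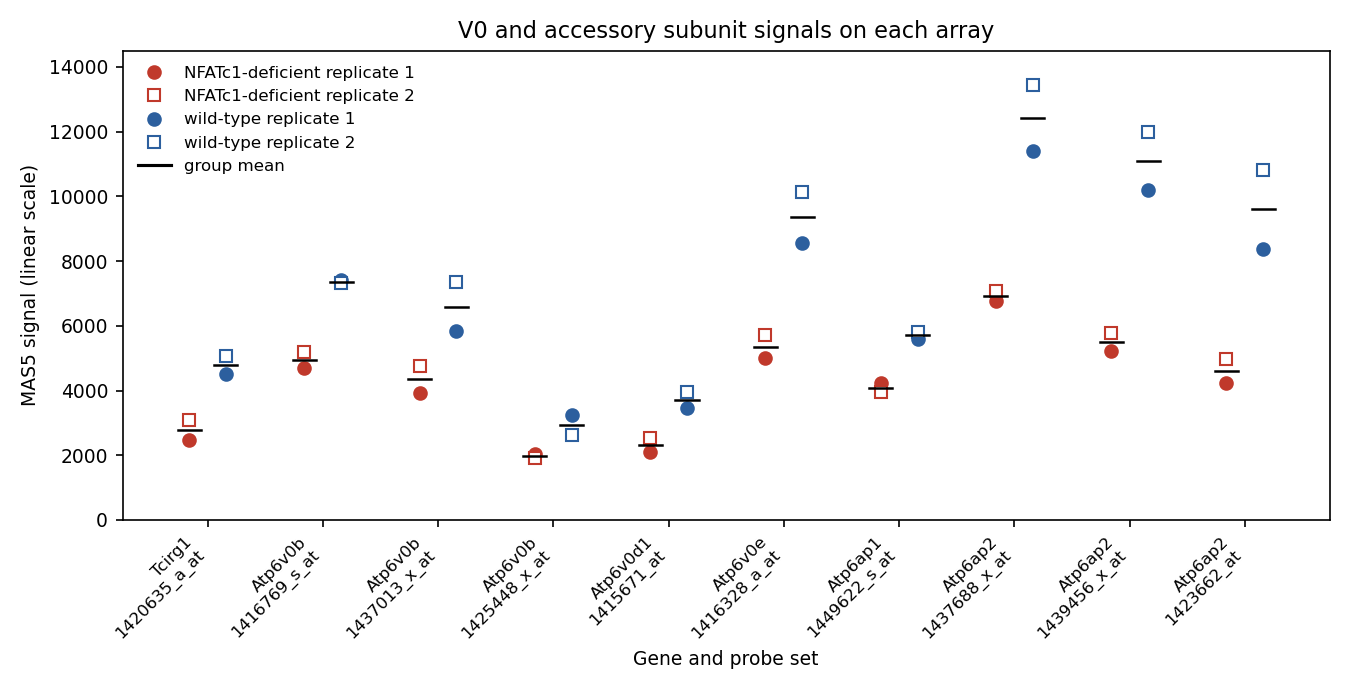
MAS5 signal (linear axis from 0) on each array for the 10 probe sets of the 6 member genes that fell. NFATc1-deficient arrays (red) stand left of wild-type arrays (blue), filled circles are replicate 1, open squares replicate 2 and black lines group means. In each of the 10 probe sets both red points lie below both blue points.

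Tcirg1, which encodes the a3 isoform of the ruffled border, fell. Its 1 probe set had 2469.7 and 3082.2 in NFATc1-deficient cultures, against 4515.7 and 5063.6 in wild-type cultures. The groups did not overlap, and replicate 2 was the higher array in both genotypes. NFATc1-deficient cultures averaged 2776 ± 433 and wild-type cultures 4789.65 ± 387 (SD, n = 2 each), so that 58.0% of the wild-type signal was left. The log2 change was -0.79 (SE 0.13, limma adjusted p = 0.00361), and it passed in all 12 alternative settings. In 4 of these settings an array was left out, so 1 genotype had a single array that was assumed to vary like the other genotype's 2. The replicate 1 arrays alone gave -0.86 and the replicate 2 arrays alone -0.71.

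Atp6v0a2, whose a2 isoform is known from endosomes and the Golgi, did not pass at any of its 3 probe sets. The brightest (1449870_a_at) had 233.9 and 255.6 in NFATc1-deficient cultures, against 266.9 and 238.4 in wild-type cultures. The groups overlapped. The log2 change was -0.04, with a 95% interval of -0.44 to 0.36 (limma adjusted p = 0.897). The other two probe sets also overlapped between genotypes. 1434791_at had 139.4 and 205.4 in NFATc1-deficient cultures, against 187 and 212.1 in wild-type cultures, a change of -0.21 (interval -0.72 to 0.31). 1424513_at had 157.9 and 185.3 in NFATc1-deficient cultures, against 165.9 and 149.7 in wild-type cultures, a change of 0.10 (interval -0.36 to 0.57). The 3 probe sets thus gave small differences of both signs. None of the intervals reached the Tcirg1 estimate, but the 95% interval of Tcirg1 itself (-1.09 to -0.49) overlapped that of 1434791_at.

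Atp6v0a1, whose a1 isoform is best known from nerve cells and synaptic vesicles, gave conflicting readings. All 4 of its probe sets were dim, with wild-type means of 59.7 to 88.75 against the filter level of about 59.3, and detection calls were not used here. The brightest (1460650_at) had 74 and 38 in NFATc1-deficient cultures, against 70.5 and 82.6 in wild-type cultures, and its change of -0.37 did not pass (interval -1.08 to 0.35). 1459924_at had 75.2 and 54.8 in NFATc1-deficient cultures, against 58.7 and 60.7 in wild-type cultures, and also did not pass (0.08, interval -0.56 to 0.72). In both the genotypes overlapped, with replicate 1 the higher of the NFATc1-deficient arrays. The 2 probe sets below the filter showed no overlap. Their wild-type means, 88.75 and 69.85, lay above the filter level. The filter used the mean over all arrays, so their low NFATc1-deficient signals put them below it. 1417632_at had 19.7 and 28.5 in NFATc1-deficient cultures, against 65.5 and 112 in wild-type cultures. 1425227_a_at had 45 and 40.3 in NFATc1-deficient cultures, against 71.1 and 68.6 in wild-type cultures. Without the filter their changes were -1.22 (limma adjusted p = 0.0758) and -0.50 (0.370), and neither passed.

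Set side by side as changes, since levels of different probe sets are not comparable, the Tcirg1 change minus that of Atp6v0a2 at its brightest probe set was -0.75 on the log2 scale. The log2 difference of these probe sets within an array was 3.28 and 3.48 on the NFATc1-deficient arrays, against 3.97 and 4.28 on the wild-type arrays, and the groups did not overlap. With the other Atp6v0a2 probe sets the value was -0.58 and -0.89. An exact two-sided permutation test of 2 against 2 arrays cannot go below p = 0.333, which this pair gave (adjusted over the 3 isoform pairs, 1). The Tcirg1 change minus that of Atp6v0a1 was -0.42 (exact permutation p = 1), but 0.43 with 1417632_at, so that its sign depended on the probe set. The value added before taking logs shrinks changes of dim probe sets such as those of Atp6v0a1. With that value at the 10th percentile of all signals, -0.42 became -0.32, and at the 50th percentile it became -0.60. The Atp6v0a1 change minus that of Atp6v0a2 was -0.33 (exact permutation p = 0.667).

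**Figure D2:**
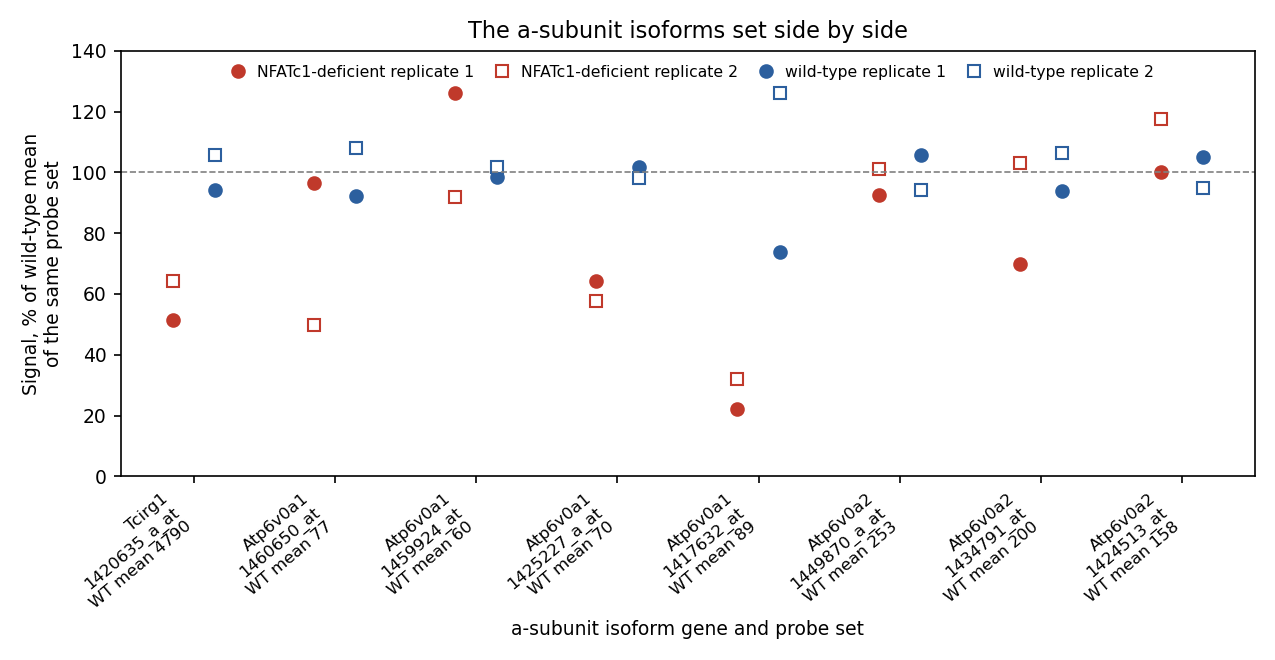
Signal on each array as a percentage of the wild-type mean of the same probe set, for the 8 probe sets of the a-subunit isoform genes, with the wild-type mean signal under each name. NFATc1-deficient arrays (red) stand left of wild-type arrays (blue). Tcirg1 lies at 51.6% and 64.4% in NFATc1-deficient cultures, the Atp6v0a2 points surround 100%, and the dim Atp6v0a1 probe sets disagree with one another.

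Atp6v0b encodes the c″ proteolipid, a member of the rotating ring, and fell at all 3 of its probe sets. 1416769_s_at had 4686.7 and 5183.1 in NFATc1-deficient cultures, against 7410.6 and 7318.1 in wild-type cultures, a log2 change of -0.58 (SE 0.11, limma adjusted p = 0.00547). 1437013_x_at had 3925.6 and 4772.7 in NFATc1-deficient cultures, against 5824.2 and 7347 in wild-type cultures, a change of -0.59 (SE 0.14, limma adjusted p = 0.0184). 1425448_x_at had 2033.3 and 1905 in NFATc1-deficient cultures, against 3236.8 and 2631.7 in wild-type cultures, a change of -0.56 (SE 0.12, limma adjusted p = 0.0123). In each the genotypes were separate, and the 3 estimates lay within 1 SE of each other. Without NFATc1-deficient replicate 1, 1416769_s_at (limma adjusted p = 0.0914) and 1437013_x_at (0.158) no longer passed while 1425448_x_at did.

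Atp6v0d1 encodes the widely expressed d subunit, which joins the ring to the central stalk of V1. It had 2114.2 and 2546.3 in NFATc1-deficient cultures, against 3459.1 and 3944.4 in wild-type cultures, without overlap. Its log2 change was -0.67 (SE 0.13, limma adjusted p = 0.00636). Atp6v0e encodes a small membrane subunit of V0. It had 5003.5 and 5706.1 in NFATc1-deficient cultures, against 8573.2 and 10122.3 in wild-type cultures, again without overlap. Its log2 change was -0.80 (SE 0.12, limma adjusted p = 0.00270), close to that of Tcirg1. The changes of both genes passed in all 12 alternative settings.

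The accessory subunits included the largest and the smallest fall among the called members. Atp6ap2, also known as the (pro)renin receptor, takes part in pump assembly. At 1423662_at it had 4222.3 and 4984.3 in NFATc1-deficient cultures, against 8362.1 and 10827.7 in wild-type cultures, and the means were 4603.3 ± 539 in NFATc1-deficient and 9594.9 ± 1743 in wild-type cultures (SD, n = 2 each). The log2 change was -1.05 (SE 0.15, limma adjusted p = 0.00163). At 1439456_x_at the change was -1.01 (SE 0.12, limma adjusted p = 0.000895), with 5209.8 and 5790.8 in NFATc1-deficient cultures, against 10196.6 and 11999.2 in wild-type cultures. At its brightest probe set, 1437688_x_at, it was -0.84 (SE 0.12, limma adjusted p = 0.00168), with 6772.5 and 7061.1 in NFATc1-deficient cultures, against 11416.6 and 13452.1 in wild-type cultures. The genotypes were separate at all 3, and all 3 passed in every one of the 12 alternative settings.

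Atp6ap1 encodes Ac45, an accessory subunit that guides the pump through the secretory pathway and is needed by osteoclasts. It had 4235.5 and 3945.8 in NFATc1-deficient cultures, against 5594.2 and 5816.5 in wild-type cultures, without overlap. Its log2 change of -0.48 (SE 0.10, limma adjusted p = 0.0109) was the smallest among the called probe sets. The change was -0.53 without NFATc1-deficient replicate 1 (limma adjusted p = 0.0604) and -0.43 without replicate 2 (0.103), so the call was lost while the size stayed close. It was also lost with median-centred scaling (0.109) and without the variance trend (0.0631). Both accessory genes are X-linked, and the replicates differ in sex. For Atp6ap1 the replicate 1 pair of arrays gave -0.40 and the replicate 2 pair -0.56. For Atp6ap2 at 1423662_at these values were -0.98 and -1.12, so the direction was the same in each pair.

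**Figure D3:**
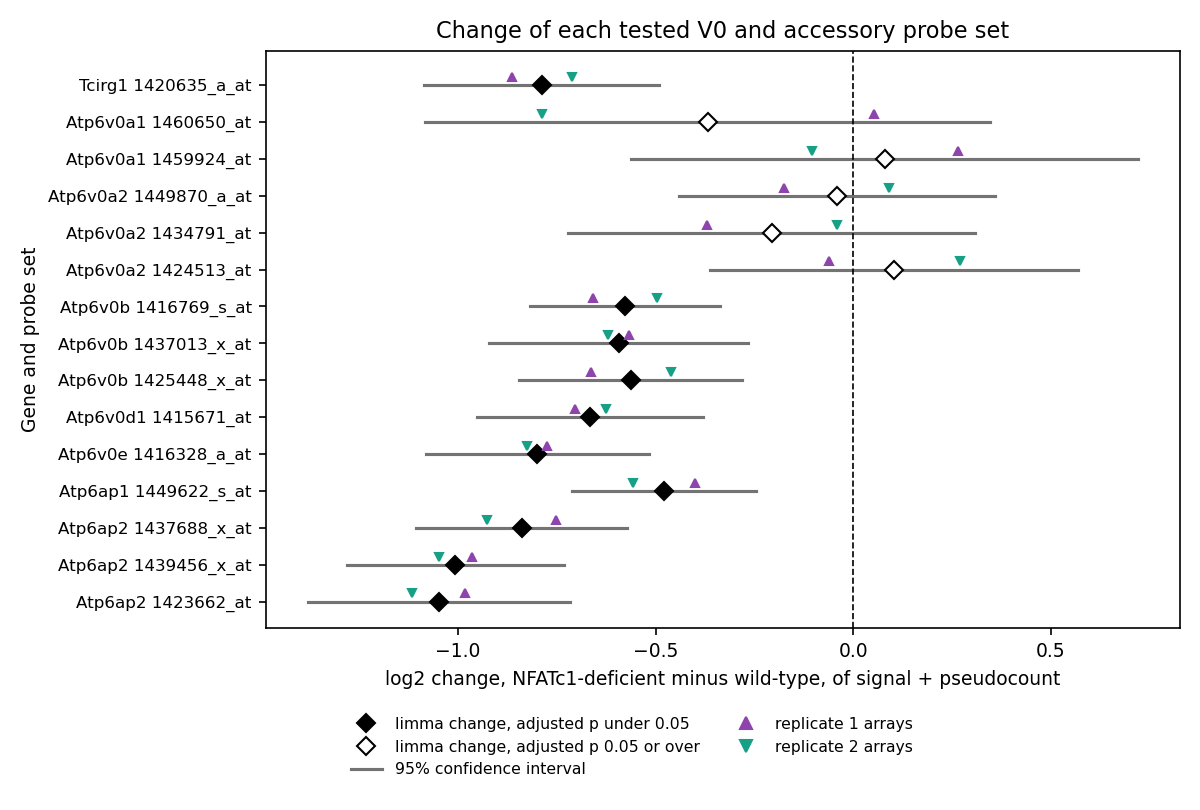
Log2 change (NFATc1-deficient minus wild-type) of the 15 tested member probe sets, with limma's 95% confidence interval as a grey line and filled diamonds for an adjusted p under 0.05. Triangles give the change within each replicate number. The 10 filled diamonds run from -1.05 to -0.48, and the 5 open ones belong to Atp6v0a1 and Atp6v0a2.

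The promoters of all members with a window, whether or not they were called, were searched for motifs of factors with a known tie to this gene set, and those that held an E-box are printed with Tcirg1 beside them. Windows run from 250 bases before to 50 bases after an annotated start (RefSeq, GRCm38.p6), and 12 windows covered 8 of the 9 genes, among them 1 window of the uncalled Atp6v0a1 and 3 of the unmeasured Atp6v0c. The motifs were CACGTG, the E-box that MITF and TFEB bind, TCACGTGA, a longer form that contains it, and TGGAAA, which holds the core bound by NFAT factors, each on both strands. Capitals mark any of these motifs.
Atp6v0b (chr4:117887280-117887579, minus strand): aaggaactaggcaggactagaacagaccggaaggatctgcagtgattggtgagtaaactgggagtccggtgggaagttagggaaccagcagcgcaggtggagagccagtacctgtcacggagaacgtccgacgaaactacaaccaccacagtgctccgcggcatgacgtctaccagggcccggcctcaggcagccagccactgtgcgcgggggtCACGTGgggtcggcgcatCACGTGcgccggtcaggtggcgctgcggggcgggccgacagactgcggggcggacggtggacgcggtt
Atp6v0d1 (chr8:105566015-105566314, minus strand): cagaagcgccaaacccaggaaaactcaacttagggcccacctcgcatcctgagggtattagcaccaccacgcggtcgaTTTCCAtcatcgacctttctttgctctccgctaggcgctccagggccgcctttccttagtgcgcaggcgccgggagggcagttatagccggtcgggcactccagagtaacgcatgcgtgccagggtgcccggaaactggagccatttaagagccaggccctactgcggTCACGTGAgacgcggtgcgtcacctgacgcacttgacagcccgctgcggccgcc
Atp6v0e (chr17:26676146-26676445, plus strand): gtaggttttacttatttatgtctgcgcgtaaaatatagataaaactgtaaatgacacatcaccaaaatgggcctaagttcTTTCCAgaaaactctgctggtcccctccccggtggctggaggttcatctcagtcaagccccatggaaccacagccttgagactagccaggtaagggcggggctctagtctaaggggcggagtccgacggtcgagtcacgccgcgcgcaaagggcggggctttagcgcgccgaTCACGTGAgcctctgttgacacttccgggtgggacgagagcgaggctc
Tcirg1 (chr19:3907084-3907383, minus strand): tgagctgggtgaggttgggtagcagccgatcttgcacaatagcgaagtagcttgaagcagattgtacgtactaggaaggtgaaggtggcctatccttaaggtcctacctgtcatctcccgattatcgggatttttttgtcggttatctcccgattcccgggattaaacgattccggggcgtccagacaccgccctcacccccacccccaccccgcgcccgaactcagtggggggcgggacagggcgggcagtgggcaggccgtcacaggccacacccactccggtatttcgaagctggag

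CACGTG was found in 3 of the 12 windows, against 7.15% of all 32851 windows of the same length. Atp6v0b held it at -36 and -18 relative to the start, Atp6v0d1 at -3 and Atp6v0e at 3. In Atp6v0d1 and Atp6v0e it was part of the longer TCACGTGA, which occurred in 2 of the 12 windows and in 0.974% of all windows. TGGAAA was found in 4 of the 12 windows, against 21.4% of all windows, and those were Atp6v0a1, Atp6v0d1, Atp6v0e and Atp6ap1. None of these full motifs stood in the 3 Tcirg1 windows. The shorter NFAT core within TGGAAA was not searched for by itself, so windows without TGGAAA may still hold that core. A match describes these letters only, and binding was not measured.

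Of 4 listed genes of the MITF and TFEB family, 3 had a probe set of their own and were tested. Other factors that may bind the E-box were not examined. Mitf had 2058.8 and 2594.1 in NFATc1-deficient cultures, against 3010.7 and 2964.6 in wild-type cultures at its brighter probe set, and did not pass (-0.37, limma adjusted p = 0.0677). At its dimmer probe set it had 158.1 and 194.2 in NFATc1-deficient cultures, against 384.9 and 451.3 in wild-type cultures, and passed (-1.15, limma adjusted p = 0.00304). Tfec fell (-0.52, limma adjusted p = 0.0191), and Tfeb did not pass (-0.48, limma adjusted p = 0.292). The share of these factors in the changes above was not tested.

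Most tested V1 sector genes fell as well. Of 12 V1 sector genes 9 were tested with 1 probe set a gene, 8 fell and Atp6v1e2 did not pass. The background with 1 probe set a gene was 11.8% lower and 12.8% higher, and by the same count 6 of 8 V0 and accessory genes fell. The median change was -0.95 over the V1 genes tested and -0.62 over the V0 and accessory genes, and the difference between the sectors was not tested. Atp6v1e1, of the peripheral stalk, had 2921.3 and 3447.6 in NFATc1-deficient cultures, against 8162.1 and 9256.5 in wild-type cultures. All 5 tested partners in acid secretion fell, with a median of -2.15. The largest changes were those of the sodium-proton exchanger Slc9b2 (-4.79), the anion exchanger Slc4a2 (-2.38), the sorting nexin Snx10 (-2.15) and carbonic anhydrase Car2 (-1.84).

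Genes for assembly and regulation of the pump were divided. Of 14 listed, 9 were tested with 1 probe set a gene, 3 fell and 6 did not pass, with a median of -0.15. Those that fell were the TLDc-domain gene Oxr1 (-1.30), Tbc1d24 (-1.56), which carries the same domain, and Rnasek (-0.62). These counts use the brightest probe set, at which Aldoa (-0.33, limma adjusted p = 0.0721) and Tm9sf4 (-0.15, 0.537) did not pass. Dimmer probe sets of both genes were called lower. They gave -0.50 (limma adjusted p = 0.0112) and -0.65 (0.0113) for Aldoa, and -0.53 (0.0385) for Tm9sf4. Another dimmer probe set of Aldoa (-0.41, 0.0760) and that of Vma21 (-0.03, 0.911) did not pass. Vma21, the assembly chaperone of V0 in the endoplasmic reticulum, had 1195.2 and 1314.6 in NFATc1-deficient cultures, against 1315.2 and 1277.2 in wild-type cultures (-0.05, limma adjusted p = 0.802). Tmem199, another assembly factor, had 858.9 and 878 in NFATc1-deficient cultures, against 568.1 and 710.5 in wild-type cultures, and did not pass (0.44, limma adjusted p = 0.0524). Ccdc115, its partner in assembly, had a change of 0.02.

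**Figure D4:**
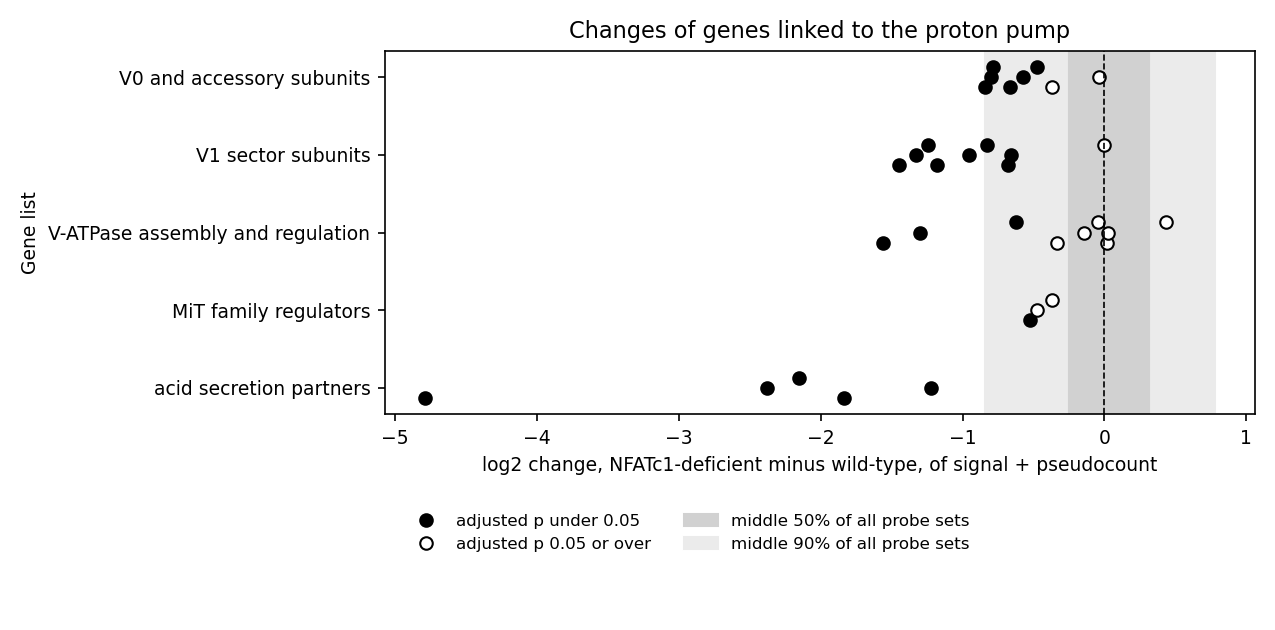
Log2 change of 1 probe set a gene for 5 gene lists linked to the pump, filled where the adjusted p was under 0.05, over grey bands that hold the middle 50% and 90% of all probe sets tested. V0 and accessory genes lie between -0.84 and -0.04, V1 genes reach -1.45 and acid secretion partners -4.79 (Slc9b2).

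The 5 genes whose levels over the 4 arrays were most like those of Tcirg1 were Laptm5, Rell1, Tmem189, Stambpl1 and Bptf. Likeness was the root mean square distance of log2 values, each centred on its own mean, and it ran from 0.0157 for Laptm5 to 0.0258 for Bptf. Laptm5, a lysosomal membrane protein of blood cells, had 984.7 and 1255.9 in NFATc1-deficient cultures, against 1848.7 and 2096.8 in wild-type cultures. With 4 arrays this is a description only.

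Markers of other cells were counted too, again with 1 probe set a gene. Over all genes tested in this way, 11.8% were called lower and 12.8% higher. Of 10 granulocyte markers tested 4 rose and none fell. Each of the 4 rose more between the replicate 1 arrays than between the replicate 2 arrays. The log2 changes in that order were 2.53 and 0.15 for S100a9, 2.25 and 0.57 for S100a8, 1.79 and 0.29 for Ngp, and 1.60 and 0.92 for Chil3. Some uncalled granulocyte markers had opposite signs in the replicates. Sums of signals here run over all probe sets of all genes listed for a cell type, tested or not. The granulocyte sum was 16057.8 and 7721.4 in NFATc1-deficient cultures, against 5706.8 and 6306.4 in wild-type cultures. Of 7 antigen-presenting markers 4 rose, with sums of 10310.5 and 9539.4 in NFATc1-deficient cultures, against 7404.2 and 6203.5 in wild-type cultures. Of 9 macrophage markers 2 fell, 1 rose and 6 did not pass, with sums of 39797.3 and 38174.5 in NFATc1-deficient cultures, against 48762.2 and 53368.1 in wild-type cultures. Of 3 lymphoid genes tested Il7r rose, and none of 4 progenitor, 1 erythroid or 2 stromal genes passed. With so few genes, the macrophage and lymphoid counts are not read as a shift of those cells. Markers of these lists that were not tested lay below the filter or had no probe set of their own. The granulocyte receptor Cxcr2 was dim, with 26.7 and 17.2 in NFATc1-deficient cultures, against 14.1 and 20.4 in wild-type cultures. The part of these cells in the fall of the pump genes was not tested. NFATc1-deficient replicate 1 was the array with the highest granulocyte sum. Without that array the Tcirg1 change was -0.63. A single NFATc1-deficient array was then left, so this value does not tell what part these cells had.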

How the data were processed

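Total RNA of the 4 cultures was hybridised as biotin-labelled cRNA to Affymetrix arrays, per the labels' protocols. The deposited values are linear intensities that the authors made with MAS5, per the submitters' processing notes, and its version and detection calls are not given in the sources used here. MAS5 sets 1 scale per array. Trimmed mean signals lay between 500.186 and 500.211, so a change shared by most transcripts would not be seen. The number of arrays limits the precision.

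The platform annotation supplied gene names. Of 22690 probe sets, 20393 had 1 symbol, 691 several and 1606 none. Signals were analysed as log2(signal + 23.3), the added value being the 25th percentile of all signals. Dim genes therefore show smaller changes than their signal ratios. The 64 control probe sets were left out, a filter kept probe sets whose mean exceeded the 40th percentile, and limma 3.58.1 (lmFit, and eBayes with an intensity trend) was run in R 4.3.3. The script was tested on simulated data. The labels call the cultures biological replicates. The limma p-values rest on the spread between 2 pools a genotype, drawn toward the spread of other probe sets of like intensity.

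The members, lists, motifs and tests were chosen with earlier results of these data known. All member probe sets are named, and of other lists at most 4 called genes with the largest changes, besides the MiT, osteoclast and sex genes. The genes most like Tcirg1 were named by their distance. Atp6v1e2, Vma21, Tmem199, Ccdc115, Aldoa, Tm9sf4, Cxcr2 and the V0 genes outside the member list were named after their values were seen. Lists use the brightest tested probe set of a gene. Alternatives covered scaling, pseudocount, filter, variance trend, replicate block and leaving out each array. No genome was used, and promoter windows came from RefSeq, GRCm38.p6.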

Additional observations from a re-analysis of the deposited data

Results flagged for a closer look

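For 4 member probe sets the change between the replicate 1 arrays and the change between the replicate 2 arrays had opposite signs, and by Xist the pools of the replicates differed in sex. For 1459924_at of Atp6v0a1 the log2 changes were 0.26 and -0.11 in that order, and for 1460650_at they were 0.053 and -0.79. For 1424513_at of Atp6v0a2 they were -0.062 and 0.27, and for 1449870_a_at -0.17 and 0.092. None of these probe sets passed the test across all arrays. With 1 array of each genotype and replicate, the difference between the replicates was not tested.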

How the results depend on the processing

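The count of V0 and accessory probe sets that fell was between 7 and 10 in all 12 alternatives, against 10 as reported, and the count that rose was 0 in each. The count of V1 genes that fell was 7 or 8. Over all probe sets, 1739 were called higher as reported, 1157 without a filter and 1015 without the variance trend. Leaving out single arrays gave 932 to 1544 lower and 849 to 1948 higher, and the lowest counts of both were those without NFATc1-deficient replicate 1. With an array left out, the lone array of a genotype is assumed to vary like the other genotype's pair. The Tcirg1 change minus that of Atp6v0a1 ran from -0.91 to 0.071 when single arrays were left out, and over all pairs of probe sets from -0.87 to 0.43, 0.43 being with 1417632_at. The Atp6v0a1 change minus that of Atp6v0a2 ran from -0.72 to 0.065 when single arrays were left out, and over all pairs of probe sets from -1.32 (1417632_at against 1424513_at) to 0.29 and 0.12 (1459924_at against 1434791_at and 1449870_a_at). Comparisons with other isoform probe sets were added after the data were seen. Uncalled changes also turned sign when single arrays were left out: 1434791_at of Atp6v0a2 ran from -0.45 to 0.040, 1449870_a_at from -0.12 to 0.033 (0.017 without NFATc1-deficient replicate 1), and 1459924_at of Atp6v0a1 from -0.088 to 0.25. The cause was not tested. Among called probe sets, 1437013_x_at of Atp6v0b did not pass without a filter (limma adjusted p = 0.0624), it and 1425448_x_at did not pass without the variance trend (0.0825 and 0.0658), and 1416769_s_at did not pass with median-centred scaling (0.0557). The genotypes share replicate numbers. With replicate number as a block, 10 member probe sets fell, 0 rose and no call changed for a member. The labels do not say that a number marks a shared litter or day, and deviations of same-numbered arrays had a correlation of 0.13 over 13575 probe sets.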

Other observations

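Probe sets of V0 isoform genes outside the member list were chosen after their values were seen. Atp6v0e2, a second form of the e subunit, moved opposite to Atp6v0e. It had 292.5 and 258 in NFATc1-deficient cultures, against 176.1 and 159.8 in wild-type cultures, without overlap, and rose by 0.64 on the log2 scale (SE 0.19, limma adjusted p = 0.0360). Without the filter on dim probe sets its limma adjusted p was 0.0851. Atp6v0a4, the a4 isoform best known from kidney and inner ear, had 7.8 and 36.4 in NFATc1-deficient cultures, against 56.9 and 28.8 in wild-type cultures. It lay below the filter and its genotypes overlapped.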
